A study of Mus musculus with 12 samples.

Results

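The 44 genes described here encode the heat shock chaperones of the mouse cytosol and mitochondria together with the co-chaperones that work with them, and they were chosen by gene symbol from a fixed list. All 44 were found among the 55487 genes of the deposited count table, and all 44 passed the filter on low counts that left 11339 protein-coding genes to be tested. RNA had been sequenced from primary mesenchymal stromal cells (MSCs) of the bone marrow of wild-type (WT) C57BL/6 mice, grown in AMEM with 10% fetal bovine serum and treated once they had passed 80% confluency. The 4 control samples, labelled Negative, were untreated. The 4 A1 samples had received 50 µM A1 for 6 h, and the 4 A1-OVA samples had received 50 µM A1 with 1 mg/mL ovalbumin (OVA, chicken egg albumin used as a model antigen) for 6 h. A1 is a variant of Accum, a molecule made of a bile acid joined to a nuclear localization peptide. The study's methods name the femurs of female mice of 6 to 8 weeks as the source of MSCs. Neither the labels nor the methods state how many animals or cultures stand behind the 4 samples of a group, so that p-values measure the spread between these samples, which may be technical. The text describing the medium of the A1-OVA group also contains the word insulin, and a contribution of insulin could not be told apart from that of OVA. No group had received OVA without A1.

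Heat shock proteins bind unfolded or newly made polypeptides and help them to fold or to be degraded. HSP70 proteins cycle on and off their clients with ATP, J-domain proteins bring the clients and switch on the ATPase, and BAG and HSP110 proteins release the nucleotide so that the cycle can start again. HSP90 acts later, on nearly folded clients, with its own set of co-chaperones, and the ring-shaped chaperonin CCT folds actin, tubulin and other cytosolic proteins. HSP60 and HSP10 form a comparable chamber in the mitochondrial matrix. In most cells, heat and misfolded cytosolic proteins release the transcription factor HSF1, which binds heat shock elements, repeats of the letters GAA in alternating orientation, and raises the RNA of the inducible members. The members were therefore placed in 8 groups by role, comprising 2 HSF transcription factors, 7 stress-inducible heat shock proteins, 7 constitutive or divergent HSP70 and HSP90 proteins, 6 J-domain co-chaperones, 3 BAG nucleotide exchange factors, 6 HSP90 co-chaperones, 8 CCT subunits and 5 mitochondrial chaperones.

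The libraries held between 13702348 and 16881995 counts, and the lowest correlation of log2 levels between samples of a group was 0.994, across genes. The counts of a pair of samples of one group differed by 1.91 to 6.83 times the variance that counting alone gives, so that no sample was a copy of another. The closest pairs were Negative replicates 3 and 4 at 1.91, A1 replicates 2 and 4 at 2.04, and in A1-OVA replicates 1 and 2 at 2.42 and replicates 3 and 4 at 2.55, while all other pairs lay at 2.91 or more. Whether samples of a close pair came from the same culture is not given in the labels, and if they did, 4 samples stand for fewer independent ones. Levels are given as CPM, the counts of a gene in each 1000000 counts of its library after TMM scaling of the library total. More than 3 counts in at least 1 sample is a low bar, which 3 of the 4 endothelial markers also met. All 10 of 10 listed stromal markers met it, so that the labelled cell type rests on their levels and not on this count. Their summed level lay at 8927 to 9654 CPM in control MSCs, 11308 to 11855 CPM with A1 and 11109 to 11374 CPM with A1-OVA, and the part of this shift in the chaperone results was not tested. The sum rose through Vim, Itgb1 and Cd44, whose means were 3640, 1450 and 175 CPM in control MSCs and 5104, 2223 and 458 CPM with A1. Other markers did not share that direction, as the means of Pdgfra, Ly6a and Col1a1 were 247, 35.1 and 3332 CPM in control MSCs and 124, 23.3 and 3243 CPM with A1. Nt5e and Thy1, which encode the MSC surface markers CD73 and CD90, reached no more than 14 and 17 counts in any sample. Of 10 hematopoietic markers 3 were above 3 counts in any sample, Cd3e and Tyrobp were at 0 throughout, and the list summed to at most 1.35 CPM. The 4 endothelial markers summed to at most 0.915 CPM. These are bulk samples, in which fewer cells of a type and less RNA per cell cannot be told apart.

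The heat shock element is the sequence that HSF1 binds at its target genes, so the start regions of the members were read before their levels. RefSeq start regions of GRCm38.p6, each 300 bases long from 250 bases before to 50 bases after a gene start, were at hand for 36 of the 44 members, with 48 windows in all. The letters GAANNTTCNNGAA or TTCNNGAANNTTC, which spell 3 alternating units and are each other's reverse complement so that both strands are covered, were in the windows of 5 of the 36 genes, or 13.9%, against 0.662% of all 27025 genes and 0.603% of all 32851 windows. These genes were Chordc1, Dnajb6, Hspd1, Hspe1 and Hsph1. The shorter letters GAANNTTC or TTCNNGAA, which spell 2 units and are contained in the longer ones, were in 47.2% of the member genes and in 17.0% of all genes. The windows below are shown because they hold the 3-unit letters, given in capitals. Hspa1b, the inducible HSP70, is shown as the member best known for heat induction whose window does not hold them. That window does hold the 2-unit letters at 1 place, which are not marked. All read 5′ to 3′.
Hsph1, chr5:149636266-149636565, minus strand: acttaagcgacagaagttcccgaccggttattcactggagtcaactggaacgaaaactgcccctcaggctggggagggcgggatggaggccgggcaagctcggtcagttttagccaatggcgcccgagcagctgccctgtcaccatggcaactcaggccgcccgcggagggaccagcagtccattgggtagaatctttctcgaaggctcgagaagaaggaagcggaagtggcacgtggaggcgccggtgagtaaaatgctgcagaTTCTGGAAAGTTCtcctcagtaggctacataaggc
Chordc1, chr9:18292017-18292316, plus strand: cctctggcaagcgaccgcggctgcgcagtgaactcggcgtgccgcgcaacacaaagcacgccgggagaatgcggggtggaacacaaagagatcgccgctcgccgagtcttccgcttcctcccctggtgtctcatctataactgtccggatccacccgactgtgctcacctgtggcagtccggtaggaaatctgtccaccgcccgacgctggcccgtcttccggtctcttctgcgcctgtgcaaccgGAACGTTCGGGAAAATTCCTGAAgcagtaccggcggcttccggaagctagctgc
Dnajb6, chr5:29735648-29735947, plus strand: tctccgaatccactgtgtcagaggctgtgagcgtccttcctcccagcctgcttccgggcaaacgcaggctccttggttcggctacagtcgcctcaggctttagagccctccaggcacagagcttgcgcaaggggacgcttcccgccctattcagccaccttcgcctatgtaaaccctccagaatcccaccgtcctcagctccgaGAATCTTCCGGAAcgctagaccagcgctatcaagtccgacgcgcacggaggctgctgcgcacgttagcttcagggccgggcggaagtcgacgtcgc
Hspe1, chr1:55087898-55088197, plus strand: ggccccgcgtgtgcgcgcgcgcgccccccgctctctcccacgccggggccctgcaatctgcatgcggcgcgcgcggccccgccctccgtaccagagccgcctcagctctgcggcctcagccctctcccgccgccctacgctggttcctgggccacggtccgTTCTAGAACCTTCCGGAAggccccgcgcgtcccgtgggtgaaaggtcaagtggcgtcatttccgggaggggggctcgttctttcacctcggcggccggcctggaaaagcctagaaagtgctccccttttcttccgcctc
Hspa1b, chr17:34959189-34959488, minus strand: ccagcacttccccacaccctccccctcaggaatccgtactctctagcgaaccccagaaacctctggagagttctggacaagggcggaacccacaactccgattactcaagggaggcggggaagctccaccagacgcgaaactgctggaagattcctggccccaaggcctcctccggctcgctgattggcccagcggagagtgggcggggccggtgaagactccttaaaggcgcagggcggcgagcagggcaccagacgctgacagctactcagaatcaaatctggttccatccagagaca
In Hsph1 the first capital lay 15 bases after the start, in Chordc1 the 3 overlapping matches began 4 bases before to 6 bases after it, in Dnajb6 the match began 46 bases before it, and in Hspe1 the 2 overlapping matches began 89 and 84 bases before it. Hspd1 and Hspe1, which encode HSP60 and HSP10, lie head to head. An Hspd1 window on the minus strand, chr1:55087883-55088182, shares 285 bases with the Hspe1 window, so that both hold the same element. In this Hspd1 window it began 144 bases before the start. That window lies inside the annotated Hspd1 gene, chr1:55077835-55088243. Another Hspd1 window, chr1:55088194-55088493, covers the annotated 5′ end and holds neither the 3-unit nor the 2-unit letters. A match is a description of the letters and not a measurement of binding. The response of the genes that hold them is given with the results below.

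The levels of the members spanned a wide range in control MSCs. Per kb of the principal transcript, Hsp90ab1, the constitutive cytosolic HSP90, had the highest level at 1653 CPM per kb, followed by Hspa8, the constitutive HSP70, at 523, Hspd1 at 356, Tcp1 at 347 and Cct2 at 340.0 CPM per kb. The SD over 4 control samples was 15.9 CPM per kb for Hspd1 and 3.13 for Tcp1, so that these neighbours did not differ beyond their spread. At the other end, 8 members lay under 7 CPM per kb. The inducible ones were Hspa1b at 6.90, Hspb8 at 2.08, Hspb1 at 1.04 and Hspa1a at 0.641 CPM per kb. The others were Dnaja4 at 6.39, Hspa2 at 5.31, Hspa4l at 4.64 and Dnajb5 at 2.22 CPM per kb. Short windows of a transcript can also occur in transcripts of other genes. Their share was 49.9% for Hspa1b, 56.5% for Hspa1a, 56.3% for Hspb1 and 51.0% for Dnaja4. It was 0% for Hspb8, Hspa2, Hspa4l and Dnajb5. Both strands were searched, whereas the libraries were strand-specific, so that a match on the opposite strand need not make a read ambiguous. For Dnaja4 the matches lay in Wdr61, which does not overlap it on the same strand. If reads from shared windows were not counted, levels per full transcript length are too low for the genes that have them. This was not tested. The 44 members together held 1.57% to 1.63% of the counts in the control samples, 1.84% to 1.91% with A1 and 1.72% to 1.85% with A1-OVA, and neither treated group overlapped the controls. Within A1-OVA, samples 1 and 2 lay at 1.85% and 1.82% and samples 3 and 4 at 1.72% and 1.75%. Hsp90ab1 alone made up between 25.6% and 26.4% of the members' summed CPM in every sample.

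With A1, 29 of the 44 members rose, 4 fell and 11 did not pass the test (edgeR's quasi-likelihood test, Benjamini-Hochberg adjusted p under 0.05 over 11339 genes). The background was broad, since 31.6% of all tested genes were higher and 31.1% were lower. The members stood at 65.9% higher and 9.09% lower, and their median log2 fold change was 0.20 beside -0.0017 for all tested genes. The changes were small, as the median absolute log2 fold change was 0.22 for the members and 0.23 for all tested genes. At a log2 fold change of 0.5 or more, 4 of the 44 members were higher, namely Hspb1, Dnajb4, Hspa4l and Bag2. This share was near the 9.41% of all tested genes. At that size 0 members were lower, beside 11.5% of all tested genes. The lower count was also 0 at an unadjusted edgeR p under 0.05 and with DESeq2. The 4 members that fell were Hsf2, Hspa1b, Hsph1 and St13.

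With A1-OVA, 23 members were higher than in control MSCs, 4 were lower and 17 did not pass the test, beside 29.7% higher and 27.9% lower among all tested genes. The median log2 fold change of the members was 0.16, and that of all tested genes was 0.0038. At 0.5 or more on the log2 scale, Hspb1, Hspa4l, Dnajb4 and Bag2 were higher, a share near the 8.93% of all tested genes. At that size 0 members were lower (edgeR, 0 at an unadjusted p under 0.05 and 0 with DESeq2), beside 8.81% of all tested genes. Hsf2, Hspa1b, Hspa2 and Bag3 were the members that fell. Both treatments were compared with the same 4 control samples, so that their results are given side by side and are not independent of each other.

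**Figure D1:**
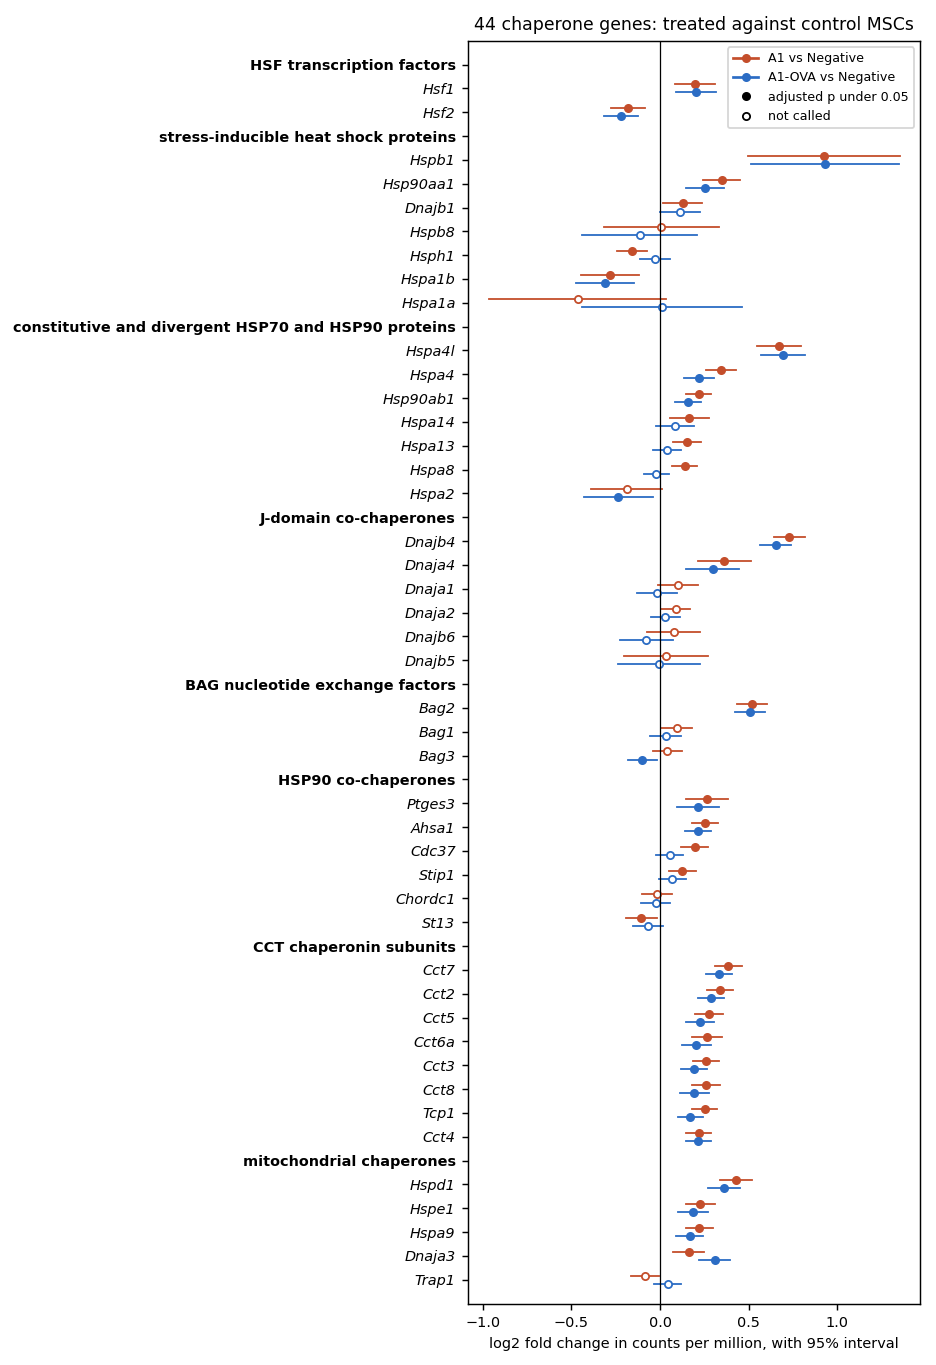
Log2 fold change in CPM of each of the 44 members against the 4 control samples, with the 95% interval, for A1 (red) and A1-OVA (blue), n = 4 samples per group, grouped by role. Filled circles passed an adjusted p of 0.05 and open circles did not. All 8 CCT subunits lie to the right of 0, while the stress-inducible proteins lie on both sides of it, from -0.47 for Hspa1a to 0.93 for Hspb1 with A1.

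**Figure D2:**
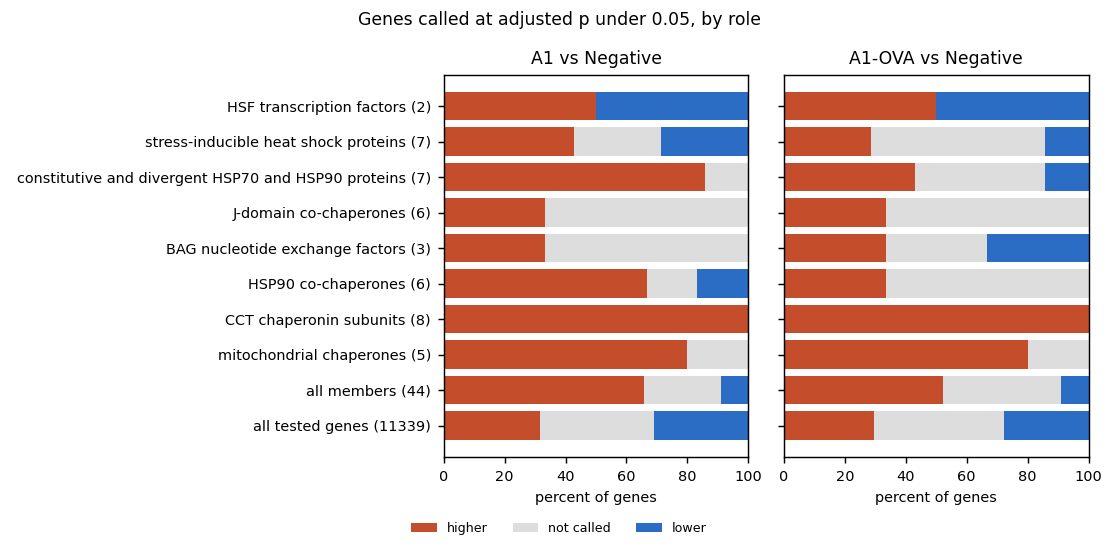
Percent of the genes of each role group, of all 44 members and of all 11339 tested genes that were higher (red), lower (blue) or not called (grey) at an adjusted p under 0.05, for A1 on the left and A1-OVA on the right. The number of genes in a group is in brackets. The CCT subunits reach 100% higher in both panels, and the J-domain co-chaperones reach 33.3%.

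The 2 HSF transcription factors moved in opposite directions. Hsf1, the main regulator of the heat shock response, lay at 42.2, 35.4, 38.7 and 39.8 CPM in control MSCs, 43.5, 46.1, 42.3 and 46.9 CPM with A1 and 46.3, 44.8, 44.6 and 44.3 CPM with A1-OVA. Every treated sample was above every control sample, and Hsf1 rose with a log2 fold change of 0.20 (SE 0.055, edgeR adjusted p = 0.00395) with A1 and 0.21 (SE 0.054, edgeR adjusted p = 0.00277) with A1-OVA. Hsf2, a related factor that can form trimers with HSF1, lay at 58.6, 64.2, 60.2 and 59.2 CPM in control MSCs, 53.5, 56.0, 52.9 and 51.1 CPM with A1 and 51.7, 49.5, 52.5 and 53.9 CPM with A1-OVA. Here every treated sample was below every control sample, and Hsf2 fell, with a log2 fold change of -0.18 (SE 0.047, edgeR adjusted p = 0.00199) with A1 and -0.22 (SE 0.046, edgeR adjusted p = 3.14e-04) with A1-OVA. The fold was 1.15 for Hsf1 and 0.882 for Hsf2 with A1. RNA levels do not measure the HSF1 activity that the cell controls on the protein.

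Among the 7 stress-inducible heat shock proteins, 3 rose with A1, 2 fell and 2 did not pass, and their median log2 fold change was 0.0073. These shares, 42.9% higher and 28.6% lower, were near the 31.6% and 31.1% of all tested genes. Hspb1, a small heat shock protein that holds unfolded clients, had the largest change of any member. It lay at 0.865, 0.886, 1.11 and 0.877 CPM in control MSCs, 1.59, 1.60, 2.14 and 1.81 CPM with A1 and 2.10, 1.71, 1.85 and 1.54 CPM with A1-OVA, so that all treated samples were above all control samples. The log2 fold change was 0.93 (SE 0.206, edgeR adjusted p = 5.36e-04) with A1 and 0.93 (SE 0.200, edgeR adjusted p = 4.42e-04) with A1-OVA. These levels rest on only 14 to 29 counts per sample, and 56.3% of the 100-base windows of its transcript also occur in a transcript of another gene. Its 95% interval with A1 ran from 0.50 to 1.35 on the log2 scale.

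Hsp90aa1, the inducible cytosolic HSP90, lay at 534, 621, 571 and 556 CPM in control MSCs, 691, 711, 756 and 747 CPM with A1 and 741, 695, 648 and 637 CPM with A1-OVA. No treated sample reached down to the controls, and the gene rose with a log2 fold change of 0.35 (SE 0.051, edgeR adjusted p = 4.09e-06) with A1 and 0.25 (SE 0.051, edgeR adjusted p = 1.97e-04) with A1-OVA, while 47.5% of its windows are shared with other transcripts. Dnajb1, the HSP40 that pairs with inducible HSP70, had means of 51.7, 56.4 and 55.9 CPM in the control, A1 and A1-OVA groups. Its log2 fold change was 0.13 (SE 0.054, edgeR adjusted p = 0.0438) with A1, a call that was lost in 12 of the 22 alternative settings, and 0.11 (SE 0.053, edgeR adjusted p = 0.0753) with A1-OVA. Hspb8, a small heat shock protein that acts with BAG3, was low, with means of 3.78, 3.79 and 3.51 CPM, and did not pass the test in either comparison.

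The inducible HSP70 genes did not rise. Hspa1a (chr17:34969190-34972156, minus strand) and Hspa1b (chr17:34956436-34959238, minus strand) encode the HSP70 that heat induces most. Their transcripts are 99.1% identical over 2210 aligned bases, so that the counts of each are uncertain. Hspa1a lay at 1.48, 1.77, 2.47 and 1.88 CPM in control MSCs, 1.08, 1.75, 1.07 and 1.60 CPM with A1 and 1.88, 1.71, 1.38 and 2.65 CPM with A1-OVA, on 14 to 43 counts per sample. The groups overlapped, with a log2 fold change of -0.47 (SE 0.241, edgeR adjusted p = 0.0981) with A1 and 0.011 (SE 0.217, edgeR adjusted p = 0.969) with A1-OVA, and 95% intervals of -0.97 to 0.035 and -0.44 to 0.46. Hspa1b, whose values in every sample were added after they had been seen, lay at 18.9, 18.6, 19.9 and 19.9 CPM in control MSCs, 15.5, 18.2, 14.3 and 15.7 CPM with A1 and 14.2, 14.5, 17.0 and 16.6 CPM with A1-OVA. Its treated samples were all below the control samples, and it fell, with a log2 fold change of -0.28 (SE 0.079, edgeR adjusted p = 0.00381) with A1 and -0.31 (SE 0.077, edgeR adjusted p = 0.00167) with A1-OVA. The counts of both genes were also summed, so that a split of reads between them plays no part. Of the transcript windows, 56.5% of Hspa1a and 49.9% of Hspa1b are shared with other genes. How reads from such windows were counted is not stated, and reads left out of both genes would be missing from the sum. The pair lay at 20.4 to 22.4 CPM in control MSCs. It lay at 15.3 to 19.9 CPM with A1 and 16.1 to 19.2 CPM with A1-OVA. The summed pair had a log2 fold change of -0.30 (SE 0.080, edgeR adjusted p = 0.00283) with A1 and -0.28 (SE 0.078, edgeR adjusted p = 0.00434) with A1-OVA.

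Hsph1, the HSP110 that releases nucleotide from HSP70 and helps to dissolve aggregates, lay at 358, 388, 383 and 369 CPM in control MSCs, 314, 341, 331 and 356 CPM with A1 and 372, 369, 355 and 372 CPM with A1-OVA. The A1 samples were all below the controls, whereas the A1-OVA samples overlapped them. It fell with A1, with a log2 fold change of -0.16 (SE 0.040, edgeR adjusted p = 0.00182), and with A1-OVA the value was -0.029 (SE 0.040, edgeR adjusted p = 0.559). Of the 5 members with the 3-unit heat shock letters in their start region, Hspd1 and Hspe1 rose with A1, Hsph1 fell, and Chordc1 and Dnajb6 did not pass the test. Of the 31 members whose windows lacked these letters, 20 rose, 2 fell and 9 did not pass, and of the 8 members without a window 7 rose and 1 fell, beside 31.6% higher and 31.1% lower among all tested genes. The median log2 fold change with A1 was 0.077, 0.20 and 0.21 in these 3 sets. With A1-OVA, 2 of the 5 rose and 3 did not pass (median -0.026), 16 of the 31 rose and 4 fell (median 0.17), and 5 of the 8 rose and 3 did not pass (median 0.16). These sets rest on exact letters and do not part inducible members from the others. Hspa1a, Hspa1b, Hspb1, Dnajb1 and Bag3 were among those lacking the letters, and Hsp90aa1 had no window. Hspd1 and Hspe1 share the same element. Whether members that bind HSF1 responded differently was not tested.

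**Figure D3:**
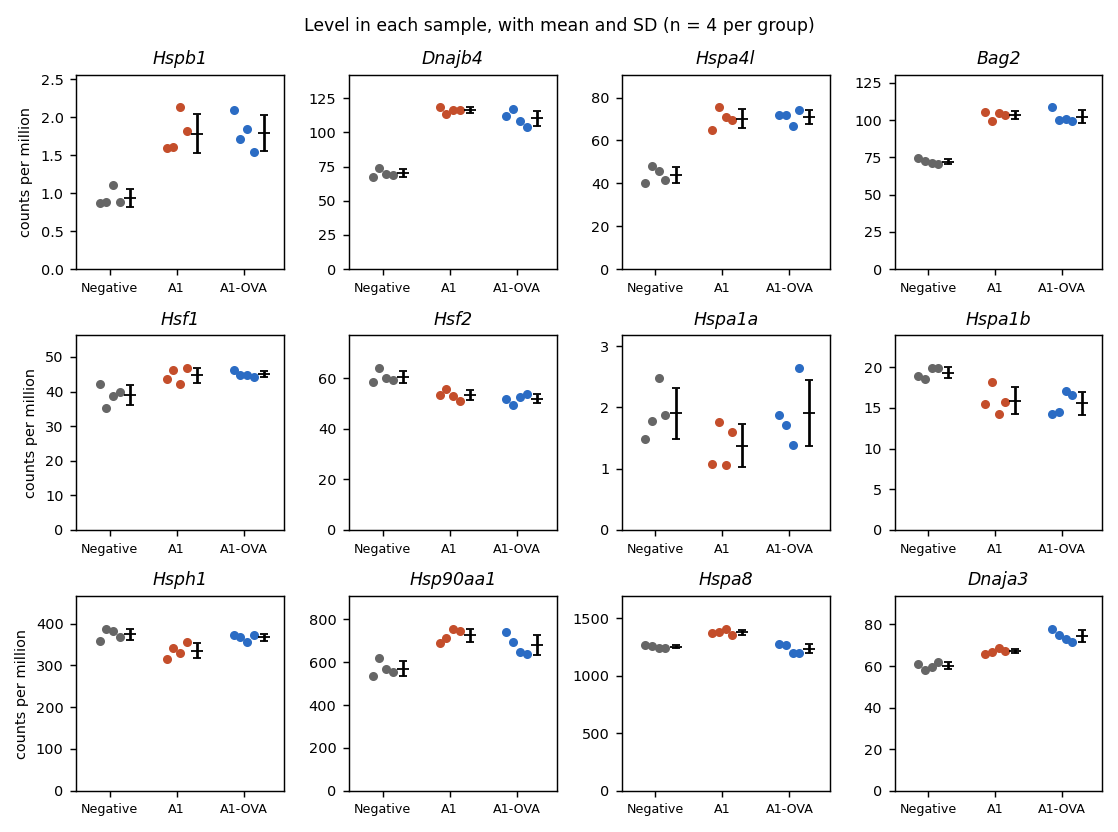
Level in CPM of 12 members in each of the 4 control (grey), A1 (red) and A1-OVA (blue) samples, with the group mean and SD in black and every vertical axis starting at 0. Hspb1, Dnajb4, Hspa4l and Bag2 in the top row stand higher in all treated samples than in all control samples, Hsf1 and Hsf2 part in opposite directions, and Hspa1a overlaps between groups.

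Of the 7 constitutive and divergent HSP70 and HSP90 proteins, 6 were higher with A1 and 1 did not pass, beside 31.6% higher among all tested genes, and the median was 0.17 on the log2 scale. With A1-OVA 3 were higher, 1 was lower and 3 did not pass the test, beside 29.7% higher and 27.9% lower among all tested genes. Hspa4l (chr3:40744495-40796103, plus strand), an HSP110 relative, lay at 40.0, 48.3, 45.9 and 41.8 CPM in control MSCs, 64.8, 75.7, 70.9 and 69.4 CPM with A1 and 71.8, 71.7, 66.7 and 74.4 CPM with A1-OVA. The lowest treated sample stood well above the highest control sample, and the log2 fold change was 0.67 (SE 0.060, edgeR adjusted p = 2.75e-09) with A1 and 0.69 (SE 0.059, edgeR adjusted p = 1.58e-09) with A1-OVA. Hspa4, another HSP110 protein, lay at 475, 506, 488 and 495 CPM in control MSCs, 609, 619.5, 637 and 629 CPM with A1 and 609, 593, 542 and 543 CPM with A1-OVA. It rose by 1.27-fold with A1, a log2 fold change of 0.34 (SE 0.041, edgeR adjusted p = 2.26e-07), and by 1.16-fold with A1-OVA, 0.22 (SE 0.041, edgeR adjusted p = 9.21e-05) on the log2 scale.

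Hsp90ab1, the most abundant member, lay at 4212, 4179, 4179 and 4096 CPM in control MSCs, 4798, 4876, 4872 and 4855 CPM with A1 and 4775, 4756, 4498 and 4564 CPM with A1-OVA. It rested on 63897 or more counts in every sample, and it rose with a log2 fold change of 0.22 (SE 0.034, edgeR adjusted p = 1.02e-05) with A1 and 0.16 (SE 0.034, edgeR adjusted p = 4.65e-04) with A1-OVA. Hspa8, which folds new proteins and strips clathrin coats, lay at 1271, 1257, 1242 and 1239 CPM in control MSCs, 1369.9, 1381, 1409 and 1354 CPM with A1 and 1272, 1265, 1199 and 1201 CPM with A1-OVA. The A1 samples were above all others, while the A1-OVA samples overlapped the controls, with a log2 fold change of 0.14 (SE 0.034, edgeR adjusted p = 0.00148) with A1 and -0.021 (SE 0.034, edgeR adjusted p = 0.623) with A1-OVA. Of its transcript windows 63.4% are shared with other genes, most of them predicted gene models. Hspa13 and Hspa14, a microsomal and a ribosome-associated HSP70 relative, rose with A1 by 0.15 and 0.17 on the log2 scale (edgeR adjusted p = 0.00191 and 0.00888). With A1-OVA their log2 fold changes of 0.04 and 0.083 did not pass the test. The call of Hspa14 was lost without A1 replicate 1. Hspa2, an HSP70 best known from the testis, had means of 13.4, 11.8 and 11.4 CPM in the control, A1 and A1-OVA groups, and fell with A1-OVA only at the edge of the threshold, with a log2 fold change of -0.23 (SE 0.094, edgeR adjusted p = 0.0382), a call lost in 7 of 22 alternative settings.

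Of the 6 J-domain co-chaperones, which hand clients to HSP70, 2 rose with each treatment and 4 did not pass the test. The share of 33.3% was near that of all tested genes, 31.6% with A1 and 29.7% with A1-OVA. Dnajb4 (chr3:152178511-152210302, minus strand), a close relative of Dnajb1, lay at 67.4, 74.0, 69.9 and 69.2 CPM in control MSCs, 119, 113, 117 and 117 CPM with A1 and 112, 117, 108 and 104 CPM with A1-OVA. All treated samples lay at 104 CPM or more and all controls at 74.0 CPM or less, and the log2 fold change was 0.73 (SE 0.043, edgeR adjusted p = 2.78e-12) with A1 and 0.65 (SE 0.043, edgeR adjusted p = 1.98e-11) with A1-OVA. Dnaja4 lay at 21.1, 17.3, 20.5 and 17.9 CPM in control MSCs, 23.5, 24.1, 27.5 and 23.7 CPM with A1 and 23.7, 23.3, 22.8 and 24.5 CPM with A1-OVA. It was higher in all treated samples than in all controls, by 0.36 (SE 0.073, edgeR adjusted p = 1.86e-04) with A1 and 0.30 (SE 0.072, edgeR adjusted p = 0.00125) with A1-OVA on the log2 scale. Of its windows 51.0% occur, on either strand, in the neighbouring gene Wdr61, which does not overlap Dnaja4 on the same strand. Dnaja1, a partner of HSP70 in the refolding of clients, lay at 124, 139, 118 and 124 CPM in control MSCs, 124, 134, 148 and 136 CPM with A1 and 132, 128, 120.0 and 119.5 CPM with A1-OVA. Its groups overlapped, and the log2 fold changes of 0.10 (SE 0.054, edgeR adjusted p = 0.120) and -0.019 (SE 0.054, edgeR adjusted p = 0.788) did not pass the test. Dnaja2, Dnajb5 and Dnajb6, the last of which suppresses aggregation, had log2 fold changes between 0.034 and 0.087 with A1 and between -0.078 and 0.029 with A1-OVA, none past the threshold.

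The BAG proteins release nucleotide from HSP70 and link it to other pathways. Bag2 (chr1:33745484-33757795, minus strand), which inhibits the ubiquitin ligase CHIP, lay at 74.3, 72.3, 71.0 and 70.7 CPM in control MSCs, 106, 99.4, 105 and 103 CPM with A1 and 109, 100.4, 101 and 99.7 CPM with A1-OVA. Treated and control samples were widely apart, and Bag2 rose with a log2 fold change of 0.52 (SE 0.041, edgeR adjusted p = 3.26e-10) with A1 and 0.51 (SE 0.040, edgeR adjusted p = 4.82e-10) with A1-OVA. Bag3, which directs aggregated clients to autophagy and is a classical HSF1 target, lay at 90.2, 82.8, 89.5 and 90.3 CPM in control MSCs, 91.7, 92.4, 88.4 and 90.5 CPM with A1 and 80.2, 82.4, 82.8 and 83.5 CPM with A1-OVA. With A1 it overlapped the controls, with a log2 fold change of 0.041 (SE 0.039, edgeR adjusted p = 0.372). With A1-OVA it was -0.10 (SE 0.039, edgeR adjusted p = 0.0329), a fall that was lost in 8 of 22 alternative settings. Bag1, which couples HSP70 to the proteasome, had means of 144, 153 and 147 CPM and did not pass the test with A1 (edgeR adjusted p = 0.0557) or A1-OVA (edgeR adjusted p = 0.534).

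Of the 6 HSP90 co-chaperones, 4 rose with A1, 1 fell and 1 did not pass the test. Among all tested genes 31.6% were higher and 31.1% lower with A1. With A1-OVA 2 co-chaperones rose and 4 did not pass, a share of 33.3% higher that was near the 29.7% of all tested genes. Ptges3, the p23 protein that stabilizes the closed form of HSP90, lay at 212, 236, 219 and 217 CPM in control MSCs, 263, 245, 293 and 261 CPM with A1 and 279, 270.0, 238 and 238 CPM with A1-OVA. All treated samples were above all controls, with a log2 fold change of 0.26 (SE 0.057, edgeR adjusted p = 3.68e-04) with A1 and 0.21 (SE 0.056, edgeR adjusted p = 0.00271) with A1-OVA. Ahsa1, which activates the HSP90 ATPase, lay at 113, 117, 112 and 109.7 CPM in control MSCs, 138, 133, 135 and 133 CPM with A1 and 133, 133, 127 and 131 CPM with A1-OVA. It rose by 0.26 (SE 0.035, edgeR adjusted p = 2.04e-06) with A1 and 0.21 (SE 0.035, edgeR adjusted p = 2.13e-05) with A1-OVA on the log2 scale. Cdc37, which brings kinases to HSP90, lay at 194, 180.0, 187 and 189 CPM in control MSCs, 219, 217, 215 and 208 CPM with A1 and 195, 199.998, 196 and 188 CPM with A1-OVA. The A1 samples stood above all others, and the log2 fold change was 0.20 (SE 0.036, edgeR adjusted p = 7.74e-05) with A1 and 0.055 (SE 0.036, edgeR adjusted p = 0.201) with A1-OVA, the latter not past the threshold.

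Stip1, the HOP protein that passes clients from HSP70 to HSP90, rose with A1 from 365 ± 6.76 to 399 ± 10.1 CPM (mean ± SD, n = 4 each), which is 0.13 (SE 0.035, edgeR adjusted p = 0.00398) on the log2 scale. With A1-OVA the log2 fold change of 0.07 (SE 0.035, edgeR adjusted p = 0.0966) did not pass the threshold. St13, the HIP protein that holds HSP70 in its client-bound state, was at 496 ± 19.8 CPM without treatment and 461 ± 7.98 CPM with A1 (mean ± SD, n = 4 each). Its fall, -0.10 (SE 0.041, edgeR adjusted p = 0.0304) on the log2 scale, was lost in 4 of 22 alternative settings, and with A1-OVA the value was -0.07 (SE 0.041, edgeR adjusted p = 0.149). Chordc1, an HSP90 partner whose start region holds 3 overlapping heat shock matches, had means of 117, 116 and 115 CPM. The 95% intervals of its log2 fold change were -0.10 to 0.069 with A1 and -0.11 to 0.058 with A1-OVA.

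The CCT chaperonin was the role group in which every member rose. All 8 subunits were higher with A1 (log2 fold change 0.22 to 0.39, median 0.26) and with A1-OVA (0.17 to 0.33, median 0.21). Of all tested genes, 31.6% were higher with A1 and 29.7% with A1-OVA. The size of the changes was ordinary, as the median absolute log2 fold change of all tested genes was 0.23 with A1 and 0.20 with A1-OVA. The subunits rested on 4874 or more counts per sample, and small changes pass the test more readily at such depth. The part of depth in the share called was not tested. The share of all tested genes with every treated sample above every control was not counted. Each of the 8 subunits had all 4 treated samples of a group above all 4 controls. Their edgeR adjusted p-values ran from 6.33e-09 to 1.11e-05 with A1 and from 7.12e-08 to 2.04e-04 with A1-OVA. Cct7 had the largest change and lay at 367, 355, 364 and 352 CPM in control MSCs, 478, 449, 486 and 465 CPM with A1 and 467, 457, 440.0 and 447 CPM with A1-OVA. Its log2 fold change was 0.39 (SE 0.036, edgeR adjusted p = 6.33e-09) with A1 and 0.33 (SE 0.036, edgeR adjusted p = 7.12e-08) with A1-OVA. Cct2 lay at 680.3, 671, 658 and 655 CPM in control MSCs, 841, 817, 869 and 842 CPM with A1 and 845, 825, 785 and 795 CPM with A1-OVA. It rose by 1.26-fold with A1 and 1.22-fold with A1-OVA, or 0.34 (SE 0.036, edgeR adjusted p = 4.00e-08) and 0.29 (SE 0.036, edgeR adjusted p = 5.30e-07) on the log2 scale. Cct5 lay at 482, 473, 469 and 458 CPM in control MSCs, 566, 563, 581 and 570.4 CPM with A1 and 583, 564, 527 and 527 CPM with A1-OVA. The log2 fold change of Cct5 was 0.28 (SE 0.038, edgeR adjusted p = 1.96e-06) with A1 and 0.23 (SE 0.038, edgeR adjusted p = 3.04e-05) with A1-OVA.

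The other CCT subunits moved by similar amounts, with log2 fold changes of 0.26 for Cct6a, 0.26 for Cct3, 0.26 for Cct8, 0.25 for Tcp1, the CCT alpha subunit, and 0.22 for Cct4 with A1. With A1-OVA they were 0.20, 0.19, 0.19, 0.17 and 0.22 in the same order. As CCT is a ring to which each subunit contributes equally, the levels may be read against each other per length, and in control MSCs they differed, from 142 CPM per kb for Cct4 to 347 CPM per kb for Tcp1. Summed over the 8 subunits, the level was 4081 to 4248 CPM in control MSCs, 4961 to 5242 CPM with A1 and 4722 to 5046 CPM with A1-OVA. Of the transcript windows of Tcp1, 20.2% occur, on either strand, in Acat3 or Acat2, which do not overlap Tcp1 on the same strand. For Cct2, Cct3, Cct4 and Cct5 the share was 0%.

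Of the 5 mitochondrial chaperones, 4 rose with both treatments and Trap1 did not pass the test in either. The shares of all tested genes that were higher were 31.6% with A1 and 29.7% with A1-OVA. Hspd1, which encodes HSP60, lay at 832, 913, 874 and 833 CPM in control MSCs, 1119, 1148, 1185 and 1197 CPM with A1 and 1178, 1135, 1039 and 1085 CPM with A1-OVA. It had the largest change of the group, by 0.43 (SE 0.043, edgeR adjusted p = 1.86e-08) with A1 and 0.36 (SE 0.043, edgeR adjusted p = 2.80e-07) with A1-OVA on the log2 scale, and 26.9% of its windows are shared with other transcripts. Hspe1, which encodes the HSP10 lid of the same chamber, lay at 192, 189, 183 and 182 CPM in control MSCs, 213, 216, 232 and 212 CPM with A1 and 224, 208, 205 and 212 CPM with A1-OVA. The treated samples were all above the controls, with a log2 fold change of 0.23 (SE 0.040, edgeR adjusted p = 4.09e-05) with A1 and 0.19 (SE 0.039, edgeR adjusted p = 3.71e-04) with A1-OVA. Hspa9, the mitochondrial HSP70 that pulls proteins through the inner membrane, rose by 0.22 (SE 0.036, edgeR adjusted p = 1.92e-05) with A1 and 0.17 (SE 0.036, edgeR adjusted p = 4.92e-04) with A1-OVA on the log2 scale.

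Dnaja3, the J-domain partner of HSPA9, lay at 60.8, 58.2, 59.4 and 62.0 CPM in control MSCs, 66.0, 66.8, 68.8 and 67.4 CPM with A1 and 78.0, 74.9, 73.1 and 71.8 CPM with A1-OVA. The A1 samples were above the controls and the A1-OVA samples above both, with a log2 fold change of 0.16 (SE 0.042, edgeR adjusted p = 0.00224) with A1 and 0.31 (SE 0.041, edgeR adjusted p = 1.66e-06) with A1-OVA. Dnaja3 overlaps the gene Vasn on the same strand. Trap1, the mitochondrial HSP90, had means of 102.1 ± 1.75, 96.1 ± 2.98 and 105 ± 2.63 CPM (SD, n = 4 each) in the control, A1 and A1-OVA groups. With A1 all 4 samples were below the controls, yet the log2 fold change of -0.086 (SE 0.037, edgeR adjusted p = 0.0506) did not pass the threshold, and with A1-OVA it was 0.044 (SE 0.037, edgeR adjusted p = 0.320). Summed over the 5 genes, the level was 2026 to 2146 CPM in control MSCs, 2478 to 2624 CPM with A1 and 2359 to 2586 CPM with A1-OVA.

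**Figure D4:**
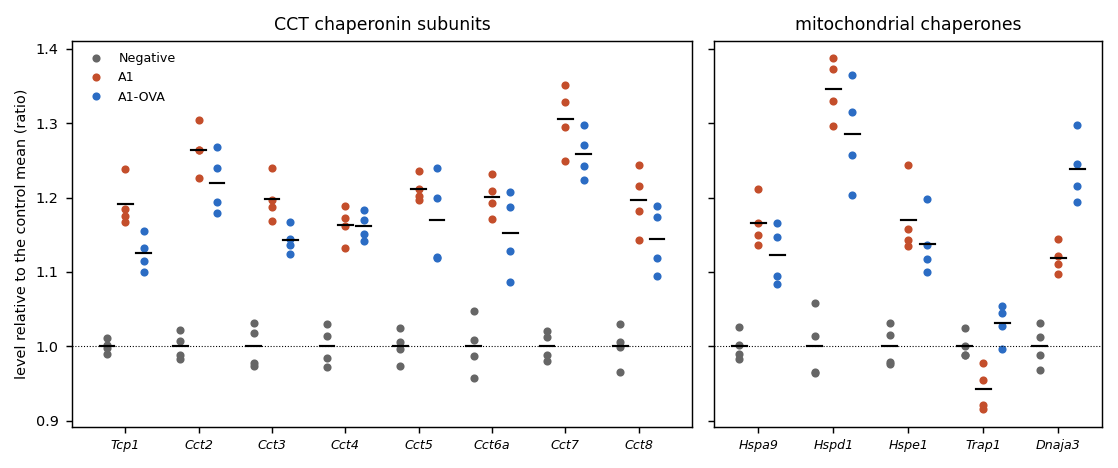
Level of each CCT subunit (left) and mitochondrial chaperone (right) in every control (grey), A1 (red) and A1-OVA (blue) sample, as a ratio to the mean of the 4 control samples, on an axis that does not start at 0. Black bars are group means. The treated points of all 8 CCT subunits, Hspa9, Hspd1, Hspe1 and Dnaja3 lie above the control points, and those of Trap1 with A1 lie below them. How many of all tested genes part in this way was not counted.

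A direct comparison of A1-OVA with A1 asks what OVA added in the presence of A1, and most members did not pass this test. Of the 44 members, 3 were higher, 4 were lower and 37 did not pass, beside 6.03% higher and 6.79% lower among all tested genes. In edgeR's test 0 members reached a log2 fold change of 0.5 in either direction, also 0 at an unadjusted p under 0.05 and 0 with DESeq2, beside 0.767% higher and 0.441% lower among all tested genes. The members stood at 6.82% higher and 9.09% lower, shares near the background. Their median log2 fold change was -0.054, while that of all tested genes was 0.0057.

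Hspa8 had the largest change of the members that passed, since the values listed above for A1-OVA all lay below those for A1, and its log2 fold change was -0.16 (SE 0.034, edgeR adjusted p = 0.00381). Cdc37 and Bag3 were also lower in every A1-OVA sample than in every A1 sample, with log2 fold changes of -0.14 (SE 0.036, edgeR adjusted p = 0.0128) and -0.14 (SE 0.040, edgeR adjusted p = 0.0214). The call of Cdc37 was lost without A1-OVA replicate 4, and that of Bag3 without A1 replicate 2 or without A1-OVA replicate 1. Hspa4 was lower by -0.13 (SE 0.041, edgeR adjusted p = 0.0466) on the log2 scale, but its samples overlapped, and the call was lost in 10 of 22 alternative settings, among them the replicate block.

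In the other direction, Dnaja3 was higher in every A1-OVA sample than in every A1 sample, with a log2 fold change of 0.15 (SE 0.042, edgeR adjusted p = 0.0242), and Trap1 likewise, at 0.13 (SE 0.037, edgeR adjusted p = 0.0257). Both calls were lost in 5 of 22 alternative settings, each of which left out 1 sample of these groups. Hsph1 was higher by 0.13 (SE 0.041, edgeR adjusted p = 0.0380), with overlapping samples, a call lost in 7 of 22 settings. Samples whose removal alone ended a call were A1 replicates 1, 2 and 4 and A1-OVA replicates 1 and 2 for Dnaja3, A1 replicates 2 and 3 and A1-OVA replicates 2, 3 and 4 for Trap1, and A1 replicates 1, 2 and 3 and A1-OVA replicates 1, 2 and 4 for Hsph1.

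For members that did not pass, the 95% intervals show which differences the data allow. Among the 8 CCT subunits the log2 fold change of A1-OVA against A1 lay between -0.082 and -0.0023, and the intervals reached from -0.15 to 0.069. For Bag2 the interval was -0.10 to 0.07, for Dnajb4 -0.16 to 0.0091 and for Hspa4l -0.10 to 0.14. Those of the weakly expressed Hspa1a and Hspb1 were far wider, -0.029 to 0.98 and -0.37 to 0.38.

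**Figure D5:**
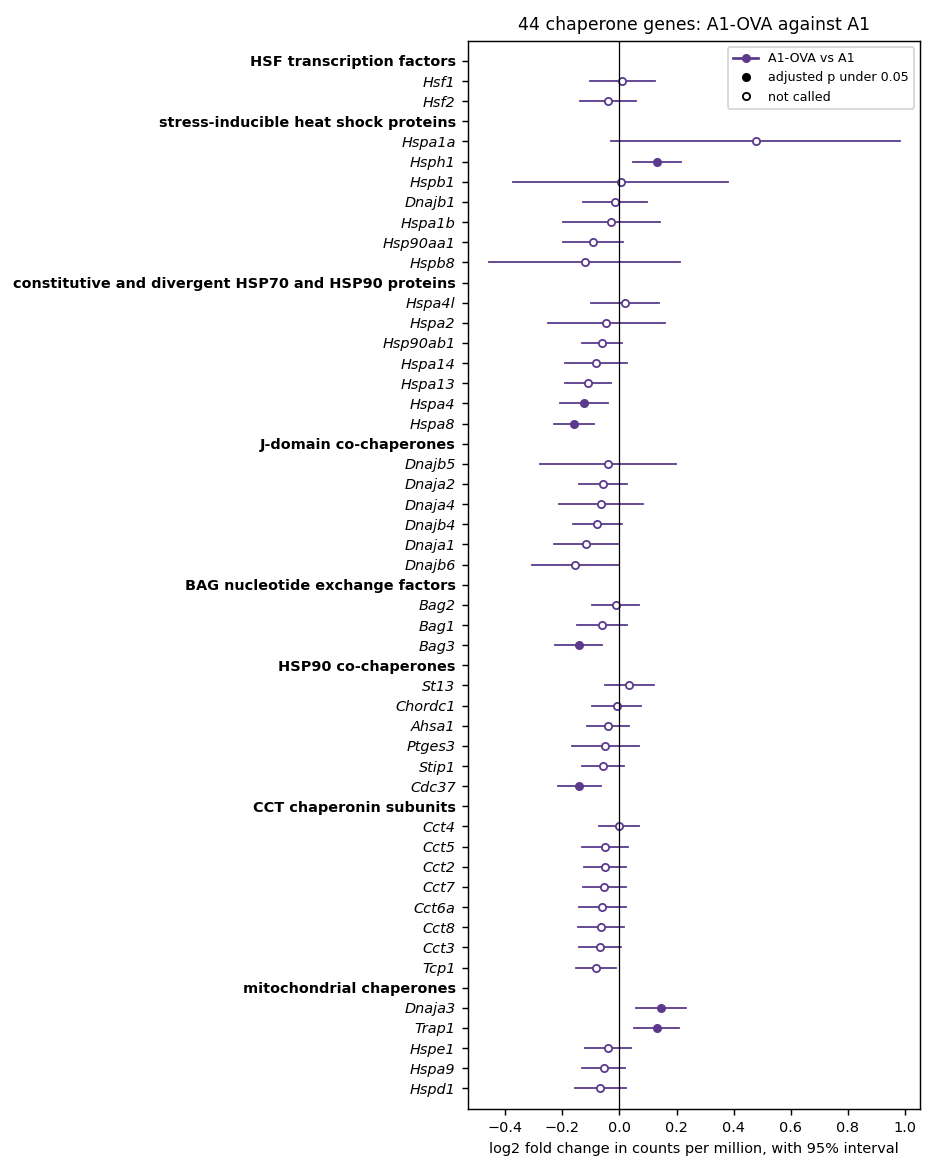
Log2 fold change in CPM of each of the 44 members between A1-OVA and A1 (n = 4 samples each), with the 95% interval, grouped by role. Filled circles passed an adjusted p of 0.05. Of the 7 filled circles, Hspa8, Cdc37, Bag3 and Hspa4 lie left of 0 and Dnaja3, Hsph1 and Trap1 right of it, all within 0.16 of 0.

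Genes that act with the members were followed through lists. Of 29 other cytosolic chaperones and co-chaperones, 23 were tested, and with A1 11 of them were higher, 3 lower and 9 not called, with a median log2 fold change of 0.15. Among all tested genes 31.6% were higher and 31.1% lower with A1, and 29.7% and 27.9% with A1-OVA, which is the background for each list here. Fkbp5 and Hspbp1, an HSP90-binding immunophilin and an HSP70 nucleotide exchange factor, had the largest rises, at 0.90 and 0.65 on the log2 scale. Cryab, a small heat shock protein, and Stub1, the ubiquitin ligase CHIP, fell most, at -0.50 and -0.17. With A1-OVA 11 were higher and 3 lower. Of 8 prefoldin subunits and other CCT partners, 6 were higher and 1 lower with A1, and 5 were higher and 1 lower with A1-OVA. Prefoldin passes actin and tubulin to CCT, and its subunits Pfdn6 and Pfdn4 rose most with A1, at 0.43 and 0.41, while Pdcl, a phosducin-like CCT regulator, fell, at -0.21.

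Among 12 partners and proteases of the mitochondrial chaperones, 6 were higher and 3 lower with A1, and 6 were higher and 2 lower with A1-OVA. The shares with A1, 50% higher and 25% lower, stood beside 31.6% and 31.1% of all tested genes. Grpel1, the nucleotide exchange factor of HSPA9, and Htra2, a protease of the intermembrane space, had the largest rises with A1, at 0.44 and 0.33. Hscb, which delivers iron-sulfur clusters to their targets with HSPA9, fell most, at -0.85, followed by Clpx, the unfoldase of a matrix protease, at -0.13. The ER chaperones belong to the unfolded protein response rather than to the heat shock response, and 12 of 14 were higher with A1 and 2 did not pass, the median being 0.24 on the log2 scale. Hyou1 and Hspa5, the ER relatives of HSP110 and HSP70, rose most with A1, at 0.66 and 0.58. With A1-OVA 11 of the 14 were higher and 3 did not pass. Directly between A1-OVA and A1, 0 of the 57 tested genes of these 4 lists were higher and 5 were lower by edgeR's quasi-likelihood test at an adjusted p under 0.05, beside 6.03% higher and 6.79% lower among all tested genes. DESeq2 likewise gave 0 higher and 5 lower, and at an unadjusted edgeR p under 0.05 the counts were 3 higher and 7 lower.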

How the data were processed

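Mouse MSC RNA was measured in 12 samples, 4 per group, assigned to groups by their titles. The authors deposited raw counts per Ensembl gene, made from strand-specific poly(A) paired-end libraries with STAR 2.7 and featureCounts 2.0 on GRCm38. From these counts, edgeR 4.0.16 (run in R 4.3.3) filtered genes with filterByExpr, scaled libraries by TMM and gave quasi-likelihood tests from 1 fit of the 12 samples with group as the only term. Adjusted p-values (Benjamini-Hochberg) cover the 11339 protein-coding genes tested, and a gene was called at an adjusted p under 0.05. Protein-coding genes were those of GENCODE M21, which holds 99.53% of the gene identifiers, or of RefSeq. The RefSeq part was added after the data were seen, because GENCODE M21 lists Cct6a under another type. Fold changes are on the log2 scale of edgeR's fit, and SE and 95% intervals come from the same fit. Intervals rest on 4 samples per group, at 13702348 to 16881995 counts per sample.

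The members and lists were chosen with earlier results of these data known. Values in all 12 samples are given for both HSFs, for the members with the largest absolute log2 fold change with A1 in each other role group (3 in groups of 6 or more, 2 in groups of 5, 1 in groups of 3), for every member called at 0.5 or more, and for the 5 largest called changes between A1-OVA and A1. In the lists, the 2 largest called changes in each direction are named. Levels per length use the principal transcript of GENCODE M21, taking the longest where several ranked equally. Windows of 100 bases of that transcript were searched in the transcripts of all other genes, on both strands together. The count test was tested on simulated data. Alternatives were DESeq2 1.42.0, other scalings and filters, all genes, only the compared groups, the replicate number as a block, summing Hspa1a with Hspa1b, and leaving out each sample.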

Additional observations from a re-analysis of the deposited data

Results flagged for a closer look

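In 132 groups of 4 samples (each member in each group), 6 had a highest or lowest sample far from the other 3, by a rule that flags about 1 in 20 groups by chance. Hspb1 had a highest control sample at 1.11 CPM (replicate 3), with the others at 0.865 to 0.886 CPM. Dnaja4 had a highest A1 sample at 27.5 CPM (replicate 3), with the others at 23.5 to 24.1 CPM. In A1-OVA replicate 1, Dnajb6 stood highest at 28.4 CPM, with the others at 25.2 to 25.5 CPM, and Bag2 stood highest at 108.9 CPM, with the others at 99.7 to 100.8 CPM. Bag3 had a lowest control sample at 82.8 CPM (replicate 2), with the others at 89.5 to 90.3 CPM. Chordc1 had a lowest A1 sample at 111.0 CPM (replicate 1), with the others at 116.8 to 117.2 CPM.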

How the results depend on the processing

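The counts of members that were higher with A1 (main count 29) and with A1-OVA (23) stayed within 1.5 times the main count in all alternatives but the stricter threshold, and no called member changed sign in any alternative. At a log2 fold change of at least 0.5 the counts were 4 higher and 0 lower with A1, 4 and 0 with A1-OVA, and 0 and 0 for A1-OVA against A1, by the construction of that threshold. DESeq2 gave 2 members lower with A1-OVA in place of 4. With 1 sample left out, this count ran from 2 to 4, with 2 without A1-OVA replicate 2 or 3 or Negative replicate 1 or 4. For A1-OVA against A1, leaving out 1 sample gave 0 to 3 higher, with 0 without A1 replicate 2 or A1-OVA replicate 2 and 1 without A1 replicate 1 or 3 or A1-OVA replicate 1 or 4. The lower count there ran from 2 to 4, with 2 without A1 replicate 2 or A1-OVA replicate 4. The cause was not tested. Protein-coding genes of GENCODE M21 alone, an alternative chosen after seeing the data, gave 28 higher with A1 and 22 with A1-OVA, 1 fewer each, as Cct6a was not tested.

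Samples with the same replicate number did not deviate together (mean correlation 0.021 over 12 pairs, from -0.13 to 0.15, across genes), and 4 of 12 samples correlated best with their own number. With a replicate block, 29 members were higher and 4 lower with A1, 24 and 4 with A1-OVA, and 3 and 3 for A1-OVA against A1. Upper-quartile scaling shifted the median log2 fold change of all tested genes by -0.029 with A1.

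A change of sign occurred only in members that had not been called. With 1 sample left out, the log2 fold change with A1 ranged over 0 for Hspb8 (-0.068 to 0.14), Dnajb5 (-0.035 to 0.12) and Chordc1 (-0.035 to 0.022). With A1-OVA it did so for Hspa1a (-0.20 to 0.16), Dnaja1 (-0.050 to 0.032), Dnajb5 (-0.066 to 0.049), Bag1 (-0.0018 to 0.053) and Chordc1 (-0.045 to 0.012). Between A1-OVA and A1 it did so for Hsf1 (-0.016 to 0.033), Hspa1b (-0.076 to 0.039), Hspb1 (-0.073 to 0.10), Dnajb1 (-0.051 to 0.033), Hspa2 (-0.13 to 0.064), Hspa4l (-0.021 to 0.058), Dnajb5 (-0.12 to 0.021), Bag2 (-0.043 to 0.00017), Chordc1 (-0.034 to 0.0041) and Cct4 (-0.015 to 0.0079). With upper-quartile scaling Hspb8 was at -0.022 with A1, Hspa1a at -0.011 with A1-OVA and Cct4 at 0.0034 between A1-OVA and A1. With all genes Hspb8 was at -4.9e-05 with A1, Hspa1a at -0.0014 with A1-OVA and Hspb1 at -0.00013 between A1-OVA and A1. With RLE size factors Hspb1 was at -0.00086 between A1-OVA and A1, and with the replicate block Hspa1a was at -0.00070 with A1-OVA.

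Depth limits Hspa1a, Hspb1 and Hspb8, which had at most 68 counts in any sample.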
